A study of Mus musculus with 18 samples.

Results

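The genes described here are 9 markers of monocytes and macrophages, Adgre1, Apoe, Cd68, Lyz2, Cd14, Fcgr1, Fcgr3, Mrc1 and Ly6c2, taken by symbol from the 54347 genes of a count table. Each symbol matched 1 row, and 7 of the 9 genes had enough counts to be tested. The table holds RNA of leukemia stem cells, sorted out of bone marrow on day 30 of an induced leukemia in C57BL/6JRj mice. The first group, called mutant here, is 5 mice labelled Prx1-Cxcl12-mutant, and the second, called control, is 4 mice labelled Prx1-Cxcl12 wild type. Each mouse gave 7000 cells and 2 technical libraries made from the 3′ ends of polyadenylated RNA. Every mouse of both groups carried the leukemia. The Prx1 promoter is known for its activity in mesenchymal cells of the limb skeleton, from which many stromal cells of the long bone marrow derive. The sources used here do not give the driver of the leukemia, the sorting markers, or the age and sex of the mice.

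Monocytes arise in the marrow from granulocyte and monocyte progenitors, leave it for the blood, and can become macrophages in tissues. Cells of this lineage recognise microbes, antibody-coated particles and lipids through surface receptors, and break down what they engulf in lysosomes rich in lysozyme and acid hydrolases. Cells of myeloid leukemias often express some of these genes. Cxcl12 is the chemokine with which marrow stroma holds haematopoietic cells in place.

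Counts summed over both libraries of a mouse ranged from 11766467 to 25485899, and the mutant mice averaged 20734088 against 15160572 in control mice. Values are given as CPM, a gene's counts scaled to a common library total with TMM factors, and a level of 3 counts was taken as the floor. Cxcl12 itself had 1, 1, 2, 2 and 4 counts in mutant mice and 0, 0, 0 and 1 counts in control mice. Both groups were at or near the floor, and sorted leukemia cells are not the cells in which the Prx1 promoter acts, so these counts do not check the mutation. All 11 genes listed for leukemia progenitors were tested, 5 had a log2 fold change below 0 and 6 above, with a median of 0.07, and 0 were called by edgeR or DESeq2. At an unadjusted p under 0.05 there were 2, Kit lower and Ctsg higher. The stem cell factor receptor gene Kit averaged 19.0 ± 2.45 CPM in mutant mice and 25.6 ± 1.99 CPM in control mice (SD, n = 5 and n = 4; edgeR adjusted p = 0.254). Kit was the 1 gene of these 11 for which the groups did not overlap, as they did not, lower in mutant mice, for 2.13% of all tested genes. Ctsg, which encodes the granule protease cathepsin G, averaged 4564 ± 1760 CPM in mutant mice and 2997 ± 525 CPM in control mice (SD, n = 5 and n = 4). The defining T cell gene Cd3e had at most 2 counts in any mouse.

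Promoter windows of 4 marker genes are shown because Apoe is 1 of the 2 markers whose groups did not overlap, and Lyz2, Fcgr3 and Ly6c2 are 3 of the markers whose levels varied together among mice. Each window is the first listed for its gene, 300 bases of the RefSeq annotation on GRCm38.p6, from 250 bases before to 50 bases after a transcription start, on the minus strand. They lie at chr7:19699139-19699438 for Apoe, chr10:117282223-117282522 for Lyz2, chr1:171059354-171059653 for Fcgr3 and chr15:75111922-75112221 for Ly6c2. Capitals mark matches on either strand to GAGGAA, the purine core found in sites of the myeloid factor PU.1, or to TTGCNNAA, a form of C/EBP site. The printed windows hold no overlap of one motif with the other.
Apoe: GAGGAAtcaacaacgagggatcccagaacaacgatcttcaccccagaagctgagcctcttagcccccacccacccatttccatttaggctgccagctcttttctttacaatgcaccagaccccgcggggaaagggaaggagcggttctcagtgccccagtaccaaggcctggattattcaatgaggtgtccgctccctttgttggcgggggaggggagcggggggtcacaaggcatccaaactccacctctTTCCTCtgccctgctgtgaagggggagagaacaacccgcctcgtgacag
Lyz2: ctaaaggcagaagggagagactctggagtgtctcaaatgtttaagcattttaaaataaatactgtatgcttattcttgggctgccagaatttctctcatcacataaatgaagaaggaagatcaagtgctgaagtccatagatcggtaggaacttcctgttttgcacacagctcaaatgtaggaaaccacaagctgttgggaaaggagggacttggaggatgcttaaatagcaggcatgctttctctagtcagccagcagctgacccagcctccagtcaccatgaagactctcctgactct
Fcgr3: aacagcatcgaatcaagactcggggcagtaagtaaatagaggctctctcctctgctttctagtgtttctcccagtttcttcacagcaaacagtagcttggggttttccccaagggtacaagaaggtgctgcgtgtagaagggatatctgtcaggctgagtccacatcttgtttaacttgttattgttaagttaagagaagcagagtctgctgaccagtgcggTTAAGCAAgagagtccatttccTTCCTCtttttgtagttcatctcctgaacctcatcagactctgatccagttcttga
Ly6c2: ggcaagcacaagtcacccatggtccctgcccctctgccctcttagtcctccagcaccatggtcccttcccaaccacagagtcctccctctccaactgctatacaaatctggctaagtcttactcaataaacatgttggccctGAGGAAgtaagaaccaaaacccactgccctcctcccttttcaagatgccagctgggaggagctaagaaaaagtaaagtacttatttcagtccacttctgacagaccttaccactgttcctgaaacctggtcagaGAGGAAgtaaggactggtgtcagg
GAGGAA occurred in 28.3% of all 32851 windows of this length and TTGCNNAA in 10.8%. The printed windows of Apoe and Ly6c2 each hold 2 matches to GAGGAA, that of Fcgr3 holds 1 match to each motif, and that of Lyz2 holds none. The table had windows for 7 of the 9 markers. Cd68 had 2 matches to GAGGAA and 1 to TTGCNNAA, Mrc1 had 3 to GAGGAA, and Fcgr1 had 1.

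Among the surface and lipid markers, Adgre1 and Apoe were the genes for which every mutant mouse lay below every control mouse, and neither passed the test. Adgre1 encodes F4/80, an adhesion G protein-coupled receptor used to identify mouse macrophages. The gene lies on chromosome 17, 57358691 to 57483527, plus strand, in the GENCODE annotation of GRCm38. It stood at 27.9, 31.7, 21.9, 27.8 and 29.7 CPM in mutant mice 6, 7, 8, 10 and 12, against 46.3, 40.3, 34.3 and 39.7 CPM in control mice 1, 2, 3 and 4. The highest mutant mouse, mouse 7, was below the lowest control mouse, mouse 3. The means were 27.8 ± 3.64 CPM in mutant mice and 40.1 ± 4.92 CPM in control mice (SD, n = 5 and n = 4), a log2 fold change of -0.53 (SE 0.12). The edgeR quasi-likelihood test, adjusted by Benjamini-Hochberg over all 12973 genes tested, gave an adjusted p of 0.176 (unadjusted p = 0.000706), rank 47 by p. In RNA of bulk sorted cells, fewer cells of a type and less RNA per cell cannot be told apart.

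Of the 7 tested markers 0 were called at an adjusted p under 0.05 in edgeR, where 0.0694% of all tested genes were called, 0.0231% higher and 0.0462% lower. At an unadjusted p under 0.05, 0 markers were higher and 2 lower, where 9.85% of all tested genes passed, 4.96% higher and 4.89% lower. A log2 fold change below 0 was found for 5 of the 7 markers and 48.3% of all tested genes. The groups did not overlap for 2 of the 7, both lower, as they did not for 4% of all tested genes, 2.13% lower. The 2 were Adgre1 and Apoe in both counts. Adgre1 was called lower by DESeq2 (adjusted p = 0.0150), which called 0.432% of all genes lower, and by limma-voom fitted to all 18 libraries, each mouse being a random effect (adjusted p = 0.0158, or 0.0215 with the technical replicate as a block), which called 0.386% and 0.377% of genes lower. The fit to 18 libraries took the same correlation between the libraries of a mouse for every gene, and counted libraries, not mice, as its observations. Its p-values are therefore not on the footing of those from 9 mice. By limma-voom on the sums per mouse Adgre1 was not called (adjusted p = 0.211). The adjusted p of Adgre1 ranged from 0.0150 to 0.982 over all settings, and its log2 fold change ranged from -0.62 to -0.40. The highest adjusted p came when log2 depth was added to the edgeR model. In that model each of the 7 tested markers had the same adjusted p of 0.982, and the unadjusted p of Adgre1 was 0.0289. Depth was higher on average in mutant mice, so that model cannot fully separate depth from group.

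**Figure D1:**
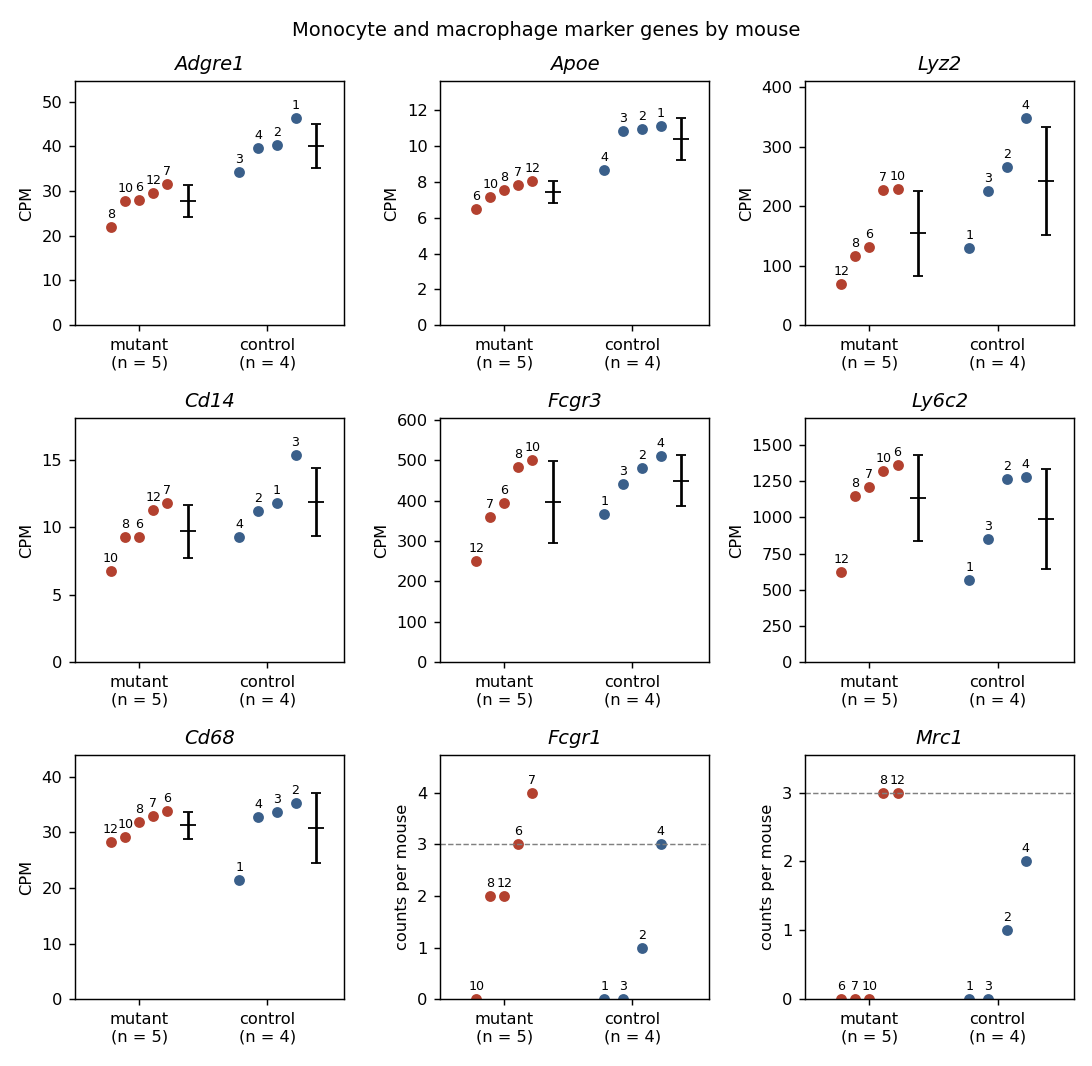
Level of each of the 9 marker genes by mouse, with mutant mice in red on the left and control mice in blue on the right; the numbers beside the points are the mouse numbers, points are sorted by value within a group, and bars give the mean ± SD. The vertical axes are CPM, except for Fcgr1 and Mrc1, where they are counts per mouse with the floor of 3 counts as a dashed line. For Adgre1 and Apoe all mutant mice lie below all control mice, and for the other 5 tested genes the groups overlap.

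Both libraries of a mouse gave like values for Adgre1. In the first libraries it stood between 23.0 and 32.0 CPM in mutant mice and between 34.0 and 44.4 CPM in control mice, and in the second between 20.6 and 30.9 CPM in mutant mice and between 34.8 and 47.8 CPM in control mice. The groups thus stood apart in each set of libraries alone. The technical SD of single libraries, taken from the difference between a mouse's libraries, was 0.12 on the log2 scale. The SD among mice of 1 group, after the libraries were summed, was 0.19. Leaving out each mouse in turn gave log2 fold changes from -0.60 to -0.45.

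Most genes that define resident macrophages were at or near 0 in the same libraries. Of the 19 genes on a tissue macrophage list, 16 were at or below 1 CPM in every mouse. Timd4 and Vsig4, receptors of resident macrophages, had 0 counts in every mouse, which allows up to 3 counts, or 0.255 CPM in the shallowest mouse. The complement gene C1qa had at most 8 counts in a mouse, and the engulfment receptor gene Mertk at most 1. The summed level of the list ranged from 27.5 to 60.8 CPM in mutant mice and from 31.4 to 44.5 CPM in control mice, most of it from the adhesion molecule gene Vcam1, and the groups overlapped. Of the 3 tested genes of this list 0 were called and 0 had an unadjusted p under 0.05, and the smallest p-values belonged to Vcam1 (log2 fold change 0.26, SE 0.26) and the iron exporter gene Slc40a1 (-0.11, SE 0.20).

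Apoe encodes apolipoprotein E, which carries lipids between cells and is secreted in quantity by macrophages. The gene lies on chromosome 7, 19696109 to 19699188, minus strand. It stood at 6.50, 7.83, 7.56, 7.17 and 8.06 CPM in mutant mice 6, 7, 8, 10 and 12, against 11.1, 10.9, 10.8 and 8.65 CPM in control mice 1, 2, 3 and 4. Control mouse 4 lay closer to the highest mutant mouse than to the other control mice. The means were 7.42 ± 0.61 CPM in mutant mice and 10.4 ± 1.16 CPM in control mice (SD, n = 5 and n = 4), a log2 fold change of -0.48 (SE 0.13) that did not pass in edgeR (adjusted p = 0.254, unadjusted p = 0.00229).

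The separation of Apoe did not hold within either set of libraries. Counts were 34 to 104 in first libraries and 67 to 114 in second libraries. In the first libraries mutant mice had 5.22 to 8.24 CPM and control mice 8.14 to 13.4 CPM, and in the second mutant mice had 7.21 to 11.1 CPM and control mice 8.52 to 12.7 CPM. The groups overlapped in both. The log2 fold change was -0.71 from first libraries and -0.25 from second libraries, and the libraries of mutant mouse 7 differed by 1.01 on the log2 scale. The technical SD of single libraries was 0.38 for Apoe, against an SD of 0.15 among mice of 1 group after the libraries were summed. The SE and p-value of Apoe rest in part on that spread among mice, which was below the spread between libraries.

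**Figure D2:**
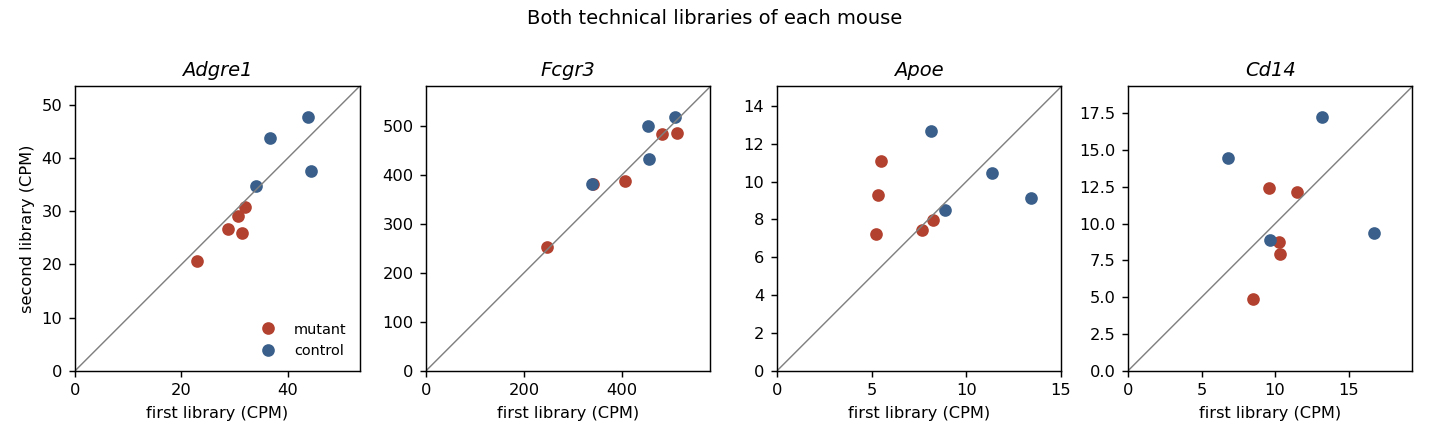
CPM of Adgre1, Fcgr3, Apoe and Cd14 in the second library of each mouse against the first, with mutant mice in red and control mice in blue and a grey line where both are equal. Adgre1 and Fcgr3 lie near the line, with technical SDs of 0.12 and 0.07 on the log2 scale, whereas Apoe and Cd14 scatter around it, with 0.38 and 0.41.

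Genes of lipoprotein and sterol handling did not follow Apoe as a group. Of 13 listed, 8 were tested and 0 were called, with 2 at an unadjusted p under 0.05, 4 with a log2 fold change below 0 and 4 above, and 5 below with DESeq2, which called 1 lower. The median was -0.05 beside 0.01 over all tested genes. The smallest p belonged to Abcg1, a sterol exporter gene, at 11.3 ± 2.02 CPM in mutant mice and 17.9 ± 4.30 CPM in control mice (SD, n = 5 and n = 4; log2 fold change -0.66, SE 0.18, edgeR adjusted p = 0.254). Apoc2, which encodes the activator of lipoprotein lipase and lies in the Apoe gene cluster, was next, at 189 ± 43.3 CPM in mutant mice and 140 ± 27.6 CPM in control mice (SD, n = 5 and n = 4; 0.43, SE 0.18, edgeR adjusted p = 0.440). The scavenger receptor gene Cd36 had 0 counts in every mouse.

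Of the lysosomal markers, Lyz2 had a larger spread among mice than Cd68, and neither passed the test. Lyz2 encodes lysozyme M, the antibacterial enzyme of monocytes, macrophages and neutrophils. The gene lies on chromosome 10, 117277331 to 117282321, minus strand. It stood at 131, 227, 116, 228 and 68.4 CPM in mutant mice 6, 7, 8, 10 and 12, against 129, 265, 224 and 347 CPM in control mice 1, 2, 3 and 4. The highest mouse had 5.08 times the level of the lowest, and the groups overlapped. The means were 154 ± 71.0 CPM in mutant mice and 241 ± 90.8 CPM in control mice (SD, n = 5 and n = 4), a log2 fold change of -0.65 (SE 0.34) that did not pass in edgeR (adjusted p = 0.545). With log2 depth of the mouse in the model it was -1.35 (SE 0.39), again not called (edgeR adjusted p = 0.982, unadjusted p = 0.0047). Without control mouse 4 it was -0.42. The libraries of a mouse were close, with a technical SD of 0.13, beside 0.68 among mice of 1 group after the libraries were summed.

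Cd68 encodes a heavily glycosylated membrane protein of late endosomes and lysosomes. Its gene spans 69664213 to 69666153 on chromosome 11, minus strand. It stood at 33.8, 33.0, 31.9, 29.2 and 28.3 CPM in mutant mice 6, 7, 8, 10 and 12, against 21.4, 35.3, 33.7 and 32.8 CPM in control mice 1, 2, 3 and 4. Control mouse 1 was lowest and the other 8 mice lay close together. The log2 fold change was 0.02 (SE 0.13, edgeR adjusted p = 0.972), and it was -0.12 without control mouse 1 and -0.23 with log2 depth in the model. Of the 8 listed genes of the lysosomal membrane all were tested and 0 were called, with 1 at an unadjusted p under 0.05, 3 below 0 and 5 above, with a median log2 fold change of 0.03. The smallest p belonged to the tetraspanin gene Cd63, at 698 ± 73.6 CPM in mutant mice and 863 ± 83.9 CPM in control mice (SD, n = 5 and n = 4; -0.31, SE 0.11, edgeR adjusted p = 0.369), with no overlap between groups. Tmem192 was next at 0.19 (SE 0.11).

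The Fc receptor markers were at opposite ends of detection. Fcgr3 encodes CD16, a low-affinity receptor for immunoglobulin G that progenitors of granulocytes and monocytes also carry. It stood at 395, 359, 483, 501 and 250 CPM in mutant mice 6, 7, 8, 10 and 12, against 366, 480, 441 and 511 CPM in control mice 1, 2, 3 and 4. Mutant mouse 12 was lowest and the groups overlapped. The means were 397.5 ± 102 CPM in mutant mice and 450 ± 62.5 CPM in control mice (SD, n = 5 and n = 4), a log2 fold change of -0.18 (SE 0.18, edgeR adjusted p = 0.776), which was -0.05 without mutant mouse 12, -0.11 without control mouse 4, and -0.27 without mutant mouse 10. With log2 depth in the model the log2 fold change of Fcgr3 was -0.49 (SE 0.22, edgeR adjusted p = 0.982, unadjusted p = 0.0468). The sources used here do not say whether CD16 was used to sort the cells.

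Fcgr1 encodes CD64, the high-affinity receptor for immunoglobulin G of monocytes and macrophages. Its gene spans 96282909 to 96293969 on chromosome 3, minus strand. It had 3, 4, 2, 0 and 2 counts in mutant mice 6, 7, 8, 10 and 12, against 0, 1, 0 and 3 counts in control mice 1, 2, 3 and 4. Most mice were at or below the floor in both groups, so Fcgr1 was not tested and no fold is given. Mrc1, which encodes the mannose receptor CD206 of tissue macrophages, had 0, 0, 3, 0 and 3 counts in mutant mice 6, 7, 8, 10 and 12, against 0, 1, 0 and 2 counts in control mice 1, 2, 3 and 4. Mrc1 spans 14229392 to 14332057 on chromosome 2, plus strand, and no mouse had it above the floor. A difference in either gene was not detectable at this depth.

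Fcgr3 lies on chromosome 1, 171051174 to 171064935 on GRCm38, near the related genes Fcgr2b (170958617 to 170976547) and Fcgr4 (171018920 to 171029761). The inhibitory receptor gene Fcgr2b averaged 116 ± 11.96 CPM in mutant mice and 126 ± 7.52 CPM in control mice (SD, n = 5 and n = 4; log2 fold change -0.12, SE 0.09). The activating receptor gene Fcgr4 averaged 8.4 ± 2.58 CPM in mutant mice and 7.69 ± 1.46 CPM in control mice (SD, n = 5 and n = 4; 0.13, SE 0.21). Of the 9 listed genes that signal with or beside these receptors 0 were called and 0 had an unadjusted p under 0.05, 8 below 0 and 1 above, with a median log2 fold change of -0.12. The smallest p-values belonged to the kinase gene Lyn (-0.19, SE 0.10, edgeR adjusted p = 0.549) and the lipid phosphatase gene Inpp5d (-0.13, SE 0.08, edgeR adjusted p = 0.594). Fcer1g, the signalling subunit that Fcgr3 needs at the surface, was at -0.01 (SE 0.19).

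Cd14 encodes the receptor that hands bacterial lipopolysaccharide to the TLR4 complex. Its gene spans 36725067 to 36726798 on chromosome 18, minus strand. It stood at 9.31, 11.8, 9.27, 6.79 and 11.3 CPM in mutant mice 6, 7, 8, 10 and 12, against 11.8, 11.2, 15.3 and 9.24 CPM in control mice 1, 2, 3 and 4. Control mouse 3 was highest, mutant mouse 10 was lowest, and the groups overlapped. The means were 9.69 ± 1.98 CPM in mutant mice and 11.9 ± 2.53 CPM in control mice (SD, n = 5 and n = 4), a log2 fold change of -0.29 (SE 0.18, edgeR adjusted p = 0.618), which was -0.14 without control mouse 3. The libraries of control mouse 2 differed by 1.09 on the log2 scale. The technical SD of single libraries was 0.41, beside an SD of 0.31 among mice of 1 group after the libraries were summed. Of the 8 genes listed for the lipopolysaccharide receptor complex 7 were tested, 0 were called and 0 had an unadjusted p under 0.05, with a median log2 fold change of 0.06. The smallest p-values belonged to Tlr4 itself, at 2.44 ± 0.61 CPM in mutant mice and 1.56 ± 0.72 CPM in control mice (SD, n = 5 and n = 4; 0.63, SE 0.32, edgeR adjusted p = 0.544), and to the adaptor gene Myd88 (0.10, SE 0.09). Ly96, the partner of TLR4 at the surface, did not pass the filter.

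Ly6c2 encodes a Ly6C protein of the surface that marks classical monocytes and their precursors. Its gene spans 75108158 to 75111970 on chromosome 15, minus strand. It stood at 1361, 1210, 1147, 1318 and 625 CPM in mutant mice 6, 7, 8, 10 and 12, against 566, 1263, 854 and 1277 CPM in control mice 1, 2, 3 and 4. Mutant mouse 12 and control mouse 1 were the lowest of the 9, and the groups overlapped. The means were 1132 ± 296 CPM in mutant mice and 990 ± 344 CPM in control mice (SD, n = 5 and n = 4), a log2 fold change of 0.19 (SE 0.25, edgeR adjusted p = 0.829). The value was 0.34 without mutant mouse 12, -0.0009 without control mouse 1, 0.44 in the first libraries and -0.0049 in the second, and -0.31 with log2 depth in the model. The sign for Ly6c2 thus differed between settings.

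Some markers have close paralogs, and sequence shared with them limits how reads of the 3′ end can be assigned. In GENCODE transcripts, 50.1% of the words of 31 bases in the last 300 bases of Ly6c2 transcripts also occur in another gene, above all in Ly6c1. For Lyz2 the share was 34.1%, all with Lyz1, and for Fcgr3 it was 0.891%, with Fcgr2b. It was 0 for Adgre1, Apoe, Cd68, Cd14, Fcgr1 and Mrc1. The table assigned 9 to 52 counts per mouse to Ly6c1 and at most 9 to Lyz1, beside 7162 to 30153 to Ly6c2 and 1154 to 5864 to Lyz2. Ly6c1 had a log2 fold change of 0.49 (SE 0.37). Values of Ly6c2 and Lyz2 are uncertain to the extent that reads were shared between copies.

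**Figure D3:**
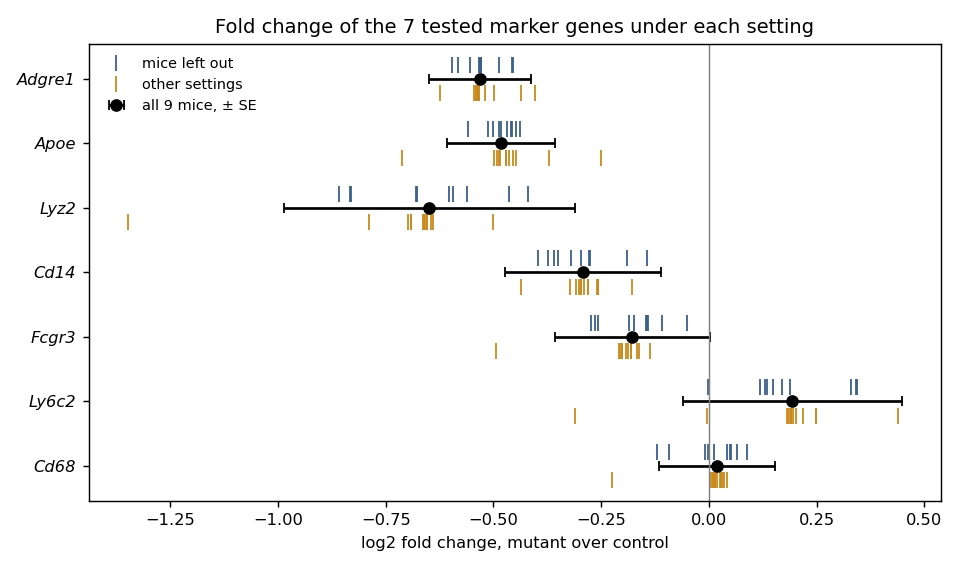
Log2 fold change, mutant over control, of the 7 tested marker genes. Black points and bars are the values from all 9 mice ± SE, blue ticks are the values with mice left out, and orange ticks are the values with other tests, scalings, filters or libraries. All ticks of Adgre1, Apoe, Lyz2, Cd14 and Fcgr3 lie below 0, with Adgre1 between -0.62 and -0.40 and Lyz2 between -1.35 and -0.42, whereas those of Ly6c2 and Cd68 lie on both sides.

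The markers did not vary among mice as 1 block. With the group means removed, the log2 CPM of Ly6c2 over the 9 mice had a Pearson r of 0.85 with Lyz2 and 0.82 with Fcgr3, and Lyz2 had 0.71 with Fcgr3. Cd68 had r of 0.76 with Ly6c2, 0.57 with Lyz2 and 0.44 with Fcgr3. Adgre1 had r of 0.14 with Apoe, -0.05 with Lyz2 and -0.55 with Fcgr3 on the same scale. Apoe and Cd14, the markers with the largest technical SDs, had 0.61 with each other. These values describe 9 mice whose libraries differ in depth, and they carry no test.

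Mutant mouse 12 and control mouse 1 were the lowest of the 9 mice for Ly6c2 and Cd68, as for 6.09% of all tested genes, a pattern described after the values had been seen. The same mice were lowest for 6 of the 17 listed monocyte genes, Ccr2, Ms4a6c, Ms4a4c, Ctss, Lgals3 and Plac8, and for the receptor signalling genes Fcer1g and Tyrobp. Plac8, a gene of monocytes and progenitors, had 580 CPM in mutant mouse 12 and 688 CPM in control mouse 1, and up to 2657 CPM in a mutant mouse and 2550 CPM in a control mouse. These mice were lowest for 1 of the 11 progenitor genes, Flt3, and for 0 of the 12 tested neutrophil genes. They were also lowest for Ly6c1, the lysosomal gene Npc2, Cd79b of the B cell list and Nkg7, the only tested gene of the T and NK cell list. In the lipopolysaccharide receptor, lipid, tissue macrophage, transcription factor, erythroid, megakaryocyte, mast cell and stroma lists they were lowest for 0 genes. Control mouse 1 had the fewest counts of all mice, 11766467, and mutant mouse 12 the fewest of the mutant mice, 15959029, while control mouse 3 had 15690184; the part of depth in this pattern was not tested. Without both mice the log2 fold change was 0.15 (SE 0.14) for Ly6c2, -0.09 (SE 0.10) for Cd68 and -0.49 (SE 0.13) for Adgre1. Of the 13214 genes tested without them 0 were called, and so 0 markers were. At an unadjusted p under 0.05 there were 3 markers (Adgre1, Apoe and Lyz2), all lower. Over all 13214 genes there were 613 higher and 666 lower at that threshold.

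**Figure D4:**
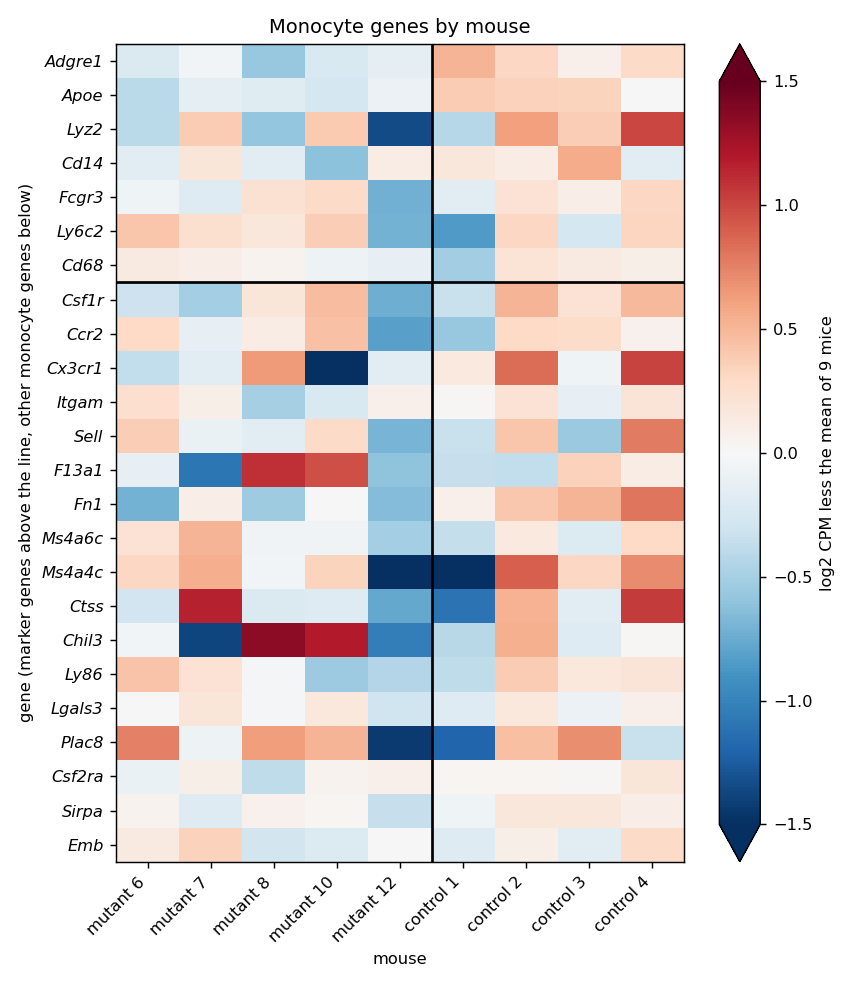
Log2 CPM less the mean of the 9 mice for the 7 tested markers, above the horizontal line, and the 17 genes of the monocyte list, below it, with the 5 mutant mice left of the vertical line and the 4 control mice right of it. Blue is below and red above the mean, and the colours end at 1.5 in either direction. Mutant mouse 12 and control mouse 1 are blue for Ly6c2, Ccr2, Ms4a4c, Ctss and Plac8, whereas Adgre1 and Apoe separate the mice by group.

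The summed level of the wider monocyte list ranged from 1576 to 3979 CPM in mutant mice and from 1707 to 3682 CPM in control mice, and the groups overlapped. All 17 genes were tested and 0 passed, with 1 at an unadjusted p under 0.05, 11 below 0 and 6 above, with a median log2 fold change of -0.12 beside 0.01 over all tested genes. The count below 0 was 12 with RLE or upper-quartile scaling and 16 with log2 depth in the model, and 9 to 15 with 1 mouse left out. In the first libraries it was 8 of 16 tested genes, with a median of -0.0071. The smallest p belonged to the fibronectin gene Fn1, at 1.80 ± 0.48 CPM in mutant mice and 3.11 ± 0.64 CPM in control mice (SD, n = 5 and n = 4; -0.79, SE 0.24, edgeR adjusted p = 0.334). The fractalkine receptor gene Cx3cr1, a marker of patrolling monocytes, was next at 0.87 ± 0.45 CPM in mutant mice and 1.46 ± 0.51 CPM in control mice (SD, n = 5 and n = 4; -0.74, SE 0.41, edgeR adjusted p = 0.574).

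Of the 12 listed transcription factors of monocytes and macrophages, 11 were tested, all 11 had a log2 fold change below 0 and 0 were called. Their median was -0.31. The number below 0 was 11 under TMM, RLE and upper-quartile scaling, and 10 of 11 by limma-voom, without mutant mouse 6 or 10, without control mouse 1 or 2, and without mutant mouse 12 and control mouse 1 together. On the 18 libraries it was 8 of 9. Klf4, needed for monocyte differentiation, had the smallest p, at 0.64 ± 0.29 CPM in mutant mice and 1.29 ± 0.59 CPM in control mice (SD, n = 5 and n = 4; -0.98, SE 0.45, edgeR adjusted p = 0.504). Zeb2 was next at -0.32 (SE 0.15, edgeR adjusted p = 0.520). The summed level of the 12 genes ranged from 475 to 534.5 CPM in mutant mice and from 550 to 610 CPM in control mice. Most of it came from Cebpb, Spi1 and Irf8. The groups did not overlap in that sum, whereas they overlapped for each of the 11 tested genes. At an unadjusted p under 0.05 there was 1 of the 11, beside 9.85% of all tested genes.

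Neutrophil genes had log2 fold changes in both directions beside these values. Of 12 tested genes of that list 7 had a log2 fold change below 0 and 5 above, 1 was called, lower in mutant mice, and at an unadjusted p under 0.05 there were 4 lower and 1 higher. The called gene was Fcnb, which encodes ficolin B, at 11.04 ± 2.76 CPM in mutant mice and 26.3 ± 4.92 CPM in control mice (SD, n = 5 and n = 4; -1.26, SE 0.18, edgeR adjusted p = 0.0368). With 1 mouse left out, the list had 1 gene called lower without mutant mouse 6 and 0 without any other mouse. It had 1 gene called higher without control mouse 2. The count called lower was 0 in the first libraries, with a mean of at least 10 CPM, without the first library of mutant mouse 7 and with log2 depth in the model. It was 2 with DESeq2, with limma-voom on the 18 libraries and with no low-count filter. Camp, which encodes a cathelicidin, averaged 139 ± 47.7 CPM in mutant mice and 386 ± 129 CPM in control mice (SD, n = 5 and n = 4; edgeR adjusted p = 0.115). Ltf, the lactoferrin gene, averaged 13.5 ± 4.43 CPM in mutant mice and 4.82 ± 3.67 CPM in control mice (SD, n = 5 and n = 4; edgeR adjusted p = 0.259). The summed level of the 13 listed neutrophil genes ranged from 299.8 to 545 CPM in mutant mice and from 551 to 1104 CPM in control mice. For 3 of the 12 tested genes, Fcnb, Camp and Csf3r, every mutant mouse lay below every control mouse, beside 2.13% of all tested genes. The groups did not overlap in the sum either. Camp was the largest part of that sum on average in both groups, and Ly6g was at or below 1 CPM in every mouse. The part of the neutrophil genes in the values of Adgre1, Apoe and Lyz2 was not tested.

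The genes whose levels followed each marker most closely were found among 8455 protein-coding genes with a mean of at least 5 CPM, by Pearson r of log2 CPM over the 9 mice. Being the highest of that many, these r values are a description only. The group means were not removed here, so genes found this way tend to share the group difference of their marker. Adgre1 was followed by the monoacylglycerol lipase gene Mgll (r = 0.96), the transporter gene Slc16a6 (0.95) and the ubiquitin ligase gene Rnf111 (0.95). Mgll averaged 12.1 ± 1.44 CPM in mutant mice and 16.5 ± 0.30 CPM in control mice (SD, n = 5 and n = 4). Apoe was followed by Frat2 (0.97), Neil1 (0.95) and Txnl4a (0.94), and Cd14 by Ppm1e (0.91), Wsb1 (0.90) and Fam174b (0.87).

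Lyz2 was followed by the interferon regulatory factor gene Irf5 (r = 0.95) and the receptor genes Pirb (0.91) and Pilrb1 (0.90). Irf5 averaged 11.3 ± 3.45 CPM in mutant mice and 15.5 ± 3.66 CPM in control mice (SD, n = 5 and n = 4; log2 fold change -0.46, edgeR adjusted p = 0.524). Fcgr3 was followed by the chaperone gene Hsp90b1 (0.98), Lsm10 (0.96) and Tes (0.96), and Ly6c2 by the early activation gene Cd69 (0.94), Agps (0.93) and Ms4a6b (0.91). Cd68 was followed by H2-DMa (0.92), which encodes a chaperone of MHC class II, Leprotl1 (0.91) and the monocyte factor gene Irf8 (0.91). The edgeR adjusted p of these 21 genes lay between 0.201 and 0.973.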

How the data were processed

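RNA of sorted leukemia stem cells was profiled in 18 libraries, 2 per mouse. The authors deposited 1 table of estimated counts per gene and library, not scaled to a common total, in which 11.3% of values were not whole. Salmon 1.3, FastQC, bcl2fastq and GRCm38 stand in the submitters' processing notes, with no roles. The sources used here do not give strand or use of molecular identifiers. The first 18 characters of each ID were matched to GENCODE release M21, which named 54094 of 54347 genes.

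The 2 libraries of each mouse were added up and rounded to whole numbers. Genes were filtered (filterByExpr, minimum count 10), scaled by TMM and tested with edgeR 4.0.16 in R 4.3.3 (quasi-likelihood F-test, 5 mutant against 4 control mice, no covariate, Benjamini-Hochberg over 12973 genes, threshold 0.05). The SE is the log2 coefficient over the square root of F. Technical agreement used CPM of single libraries. Floors of 3 counts cover counting error only. Alternatives were DESeq2 1.42.0, limma-voom 3.58.1 on mouse sums and on single libraries, other scalings, filters and thresholds, each library set, a depth covariate, thinning, and leaving out mice. The edgeR step was also run on simulated counts with known changes. Mouse numbers are not shared between groups, so mice were not paired.

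The named genes are the 9 markers, their listed paralogs, Cxcl12, the called genes and the 2 smallest p-values of the Fc receptor, lipopolysaccharide receptor, lipid, lysosomal membrane, monocyte, tissue macrophage and transcription factor lists, and the 3 genes closest to each tested marker, predicted genes left out. Genes of the progenitor, neutrophil and other cell type lists, and those named for their level or for mutant mouse 12 and control mouse 1 were chosen after their values were seen. The markers and lists were chosen with earlier results of these data known.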

Additional observations from a re-analysis of the deposited data

Results flagged for a closer look

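Apoe in control mouse 4, at 8.65 CPM, lay far from the other control mice, which had 10.8 to 11.1 CPM. Its gap to the nearest of them was 0.876 of the whole range of the group, above the critical value of 0.829 for 4 samples. It was the 1 such value among 14 groups examined, the 7 tested markers in each genotype, and chance flags about 1 in 20 groups. Without control mouse 4 the log2 fold change of Apoe was -0.56.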

How the results depend on the processing

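The count of markers called higher was 0 under every setting run. The count called lower was 0 with all 9 mice in edgeR and 0 with limma-voom on the sums per mouse (Adgre1 adjusted p = 0.211). It was 1, Adgre1, with DESeq2. It was also 1, Adgre1, with limma-voom fitted to all 18 libraries with a random effect of mouse, without a technical replicate block and with it (adjusted p = 0.0215). The fits to 18 libraries counted libraries, not mice, as observations. The cause of these differences was not tested. Over all genes the calls were 3 higher and 6 lower in edgeR, 37 and 56 with DESeq2, 16 and 45 on the 18 libraries without the block, 15 and 44 with it, and 9 and 12 with no low-count filter. They were 2 and 1 in the second libraries, 0 and 0 in the first, with a mean of at least 10 CPM, with log2 depth in the model, without the first library of mutant mouse 7 and without mutant mouse 12 and control mouse 1, and from 0 to 3 higher and 0 to 5 lower with 1 mouse left out. DESeq2 called 0 genes of the Fc receptor, lipopolysaccharide receptor, lysosomal membrane, monocyte, tissue macrophage and transcription factor lists. Adgre1, Apoe, Lyz2, Cd14 and Fcgr3 kept a log2 fold change below 0 under every setting run. Cd68 changed sign with the covariate (-0.23), without mutant mouse 12 and control mouse 1 (-0.0917) and with single mice left out (-0.12 to 0.0894), and Ly6c2 with the covariate (-0.31), in the second libraries (-0.0049) and with single mice left out (-0.0009 to 0.34); the cause was not tested. Leaving out those 2 mice together was chosen after seeing the data. Depth limits Fcgr1 and Mrc1, which were tested only without the filter, and Apoe and Cd14, at 34 to 169 counts per library.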

Other observations

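Lists of other cell types gave the following values in the same libraries. Summed levels ranged from 12.5 to 56.4 CPM in mutant mice and from 5.87 to 50.6 CPM in control mice for erythroid genes, all 5 tested genes with a log2 fold change above 0 and 0 called, with 1 at an unadjusted p under 0.05. Mast cell and basophil genes summed to 29.2 to 36.0 CPM in mutant mice and 40.0 to 57.5 CPM in control mice, without overlap. Most of that sum came from Gata2, at 18.65 ± 4.08 CPM in mutant mice and 32.4 ± 7.53 CPM in control mice (SD, n = 5 and n = 4). The groups did not overlap for Gata2 itself, as they did not, lower in mutant mice, for 2.13% of all tested genes. Ms4a2 and Fcer1a of this list were at or below 1 CPM in every mouse. Of the 3 tested genes 2 had a log2 fold change below 0 and 1, Mcpt8, above (0.43, SE 0.22). Of these genes 0 were called by edgeR and 2 by DESeq2. Megakaryocyte and platelet genes summed to 21.9 to 33.6 CPM in mutant mice and 30.7 to 41.5 CPM in control mice, and Itga2b, the integrin of that lineage, was called lower by edgeR, a call that no setting with 1 mouse left out kept, nor did either set of libraries, thinning or log2 depth in the model. Stroma and endothelial genes summed to 38.3 to 52.3 CPM in mutant mice and 46.0 to 59.2 CPM in control mice, with Pdgfra, Kitl and Emcn at 0 counts in every mouse. Most of that sum came from Pecam1, at 37.4 ± 5.69 CPM in mutant mice and 43.6 ± 5.90 CPM in control mice (SD, n = 5 and n = 4). Dendritic cell, B cell and T or NK cell lists had 0 genes called by edgeR or DESeq2, and at an unadjusted p under 0.05 there were 0. Their part in the values of the monocyte and macrophage markers was not tested.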
